A study of Mus musculus with 24 samples.

Results

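Gastrocnemius muscle RNA of 8 mice fed a high-fat diet was the subject, taken as all 8 control arrays (cHF) among the 24 two-colour arrays of the series, and each mouse was measured on 1 array. The animals were male C57BL/6N mice, 3 months old when the feeding began, given for 8 weeks a corn-oil-based diet with about 35% lipid by weight. The comparison groups were 8 mice in which 15% by weight of the dietary lipid was replaced by an n-3 concentrate rich in long-chain polyunsaturated fatty acids (cHF+F) and 8 mice given 10 mg rosiglitazone, a thiazolidinedione drug that activates the nuclear receptor PPARg, per kg of diet (cHF+ROSI). Mice of all groups were then fasted for 10 h in the light phase, re-fed a standard chow and killed the next morning, so the controls also carry the fast and the change of diet, and no group kept on a chow diet throughout was analysed here. The Cy5 channel of each array held the RNA of 1 mouse and the Cy3 channel a pooled reference RNA shared by all arrays, which also contained RNA of the treated groups, without dye swaps. Per the paper, the pool also took in RNA of mice given a higher dose of rosiglitazone, a group that its analysis left out. Mice are called by their replicate number, which is also the number of the slide.

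The gastrocnemius is a calf muscle built in the mouse mainly of fast fibres, which contract through fast myosin heavy chains and draw much of their ATP from glycolysis and creatine phosphate, with a smaller share of slow, oxidative fibres in its deep part. A dissected muscle also carries blood vessels, motor and sensory nerve branches with their Schwann cells, tendon, blood and fat lying between and around the fibres. Genes are ranked below in 2 ways. The level is the mean log2 Cy5 signal of a gene's brightest probe, and the variation is the SD over the 8 mice of the loess-normalized log2 ratio of Cy5 over Cy3, in which a difference of 1 is a doubling.

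The arrays fell into a dimmer and a brighter set. The median log2 Cy5 signal was 6.04 to 6.16 on the arrays of mice 1 to 3 and 6.67 to 6.93 on those of mice 4 to 8, and 30.4% to 46.0% against 50.3% to 59.3% of spots were well above background. Raw log2 Cy5 signals correlated at 0.84 to 0.995 between arrays of a pair across probes, and at most 2 spots of an array were saturated. All 8 arrays lay at the same position of their slides and were scanned on 1 day. In the comparison groups, 1 array stood apart, that of cHF+ROSI replicate 4, with a median log2 Cy5 signal of 9.13. For 8449 of 21045 genes (40.1%) the brightest probe was well above background on all 8 cHF arrays, and for 5613 genes on none of them.

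The brightest probes of the cHF muscles belonged to contractile and energy-supplying genes of fast fibres. Aldoa, the muscle aldolase of glycolysis, ranked highest with a mean log2 Cy5 signal of 18.59 ± 1.00 (SD, n = 8), from 16.58 through a median of 19.20 to 19.30, and was saturated on 2 arrays. Its probe lies at chr7:126586433-126586492 (mm8), and which exon that is was not analysed here. Acta1, the skeletal muscle actin, followed at 18.12 ± 0.89, and Lars2, a mitochondrial leucyl-tRNA synthetase, at 18.11. Levels of different probes are given as a ranking only, since each probe binds with its own strength. These SDs are of raw signals, over dim and bright arrays alike.

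The ranks below these were held by Tpm1 (17.95, an alpha tropomyosin), Slc25a4 (17.86, the ADP/ATP carrier of muscle mitochondria), Tcap (17.84, telethonin of the Z disc) and Myh4 (17.83, the IIb myosin heavy chain). Tnni2 (17.75) and Tnnt3 (17.74), the fast troponins I and T, preceded Myh2 (17.72, the IIa myosin heavy chain) and Myh8 (17.67, the perinatal one). Myh2 and Myh8 share much of their sequence. The other Myh8 probes were far dimmer, at 6.156, 6.099 and 6.097, and were not kept. Which transcript the bright Myh8 probe reads was not tested. Ckm, the muscle creatine kinase, reached 17.17, Gapdh 17.15, Mb, the oxygen-binding myoglobin, 17.08, and Atp2a1, the fast-fibre calcium pump, 16.91. Among the 25 brightest there were also the ribosomal RNA Rn18s (17.99), Ptprz1 (17.71), Myom2 (17.50), Cox7a1 (17.35), Mdh2 (17.31), Eno3 (17.28), Actn3 (17.21), Pgm1 (17.06), Cox6a2 (17.06) and Adssl1 (16.90). The Ptprz1 signal is that of the brighter of its 2 kept probes, and the dimmer one is described further on.

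Counted over gene lists, 13 of 15 fast-fibre genes, 11 of 15 muscle identity genes, 8 of 21 genes of glycolysis and glycogen, 10 of 34 respiratory chain genes and 5 of 32 ribosomal protein genes were among the 100 brightest, against none of 11 slow-fibre genes. The brightest slow-fibre genes were Myl3, the slow and ventricular essential light chain, at 15.68 and rank 101, and Myh7, the slow myosin heavy chain, at 14.63 and rank 256. Endothelial markers were all well above background on 8 arrays, led by Egfl7 at 12.19 and Vwf at 11.27. Of the 100 brightest cHF genes, 93 were also among the 100 brightest of cHF+F and 90 among those of cHF+ROSI.

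The variation between mice could be measured for 14591 probes and 9913 genes that passed the filter of a mean signal at least 2 times background in both channels. The median SD was 0.139, and 5% of genes lay above 0.311 and 1% above 0.547. By construction 5.00% of the genes, 496, form the most variable set, and the counts below are read against that share. Just inside its edge were Nrip1 (SD 0.3111) and Cdc42ep3 (0.311), and just outside Kmt5b (0.3107) and Col8a1 (0.3106). The median SD was 0.130 among the dimmest 25% of genes and 0.143 among the brightest 25%, and the most variable 5% held 4.24% of the former and 6.05% of the latter. For 123 probes printed 10 times, the SD between spots of 1 array was 0.0866 and the SD between mice 0.142.

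**Figure D1:**
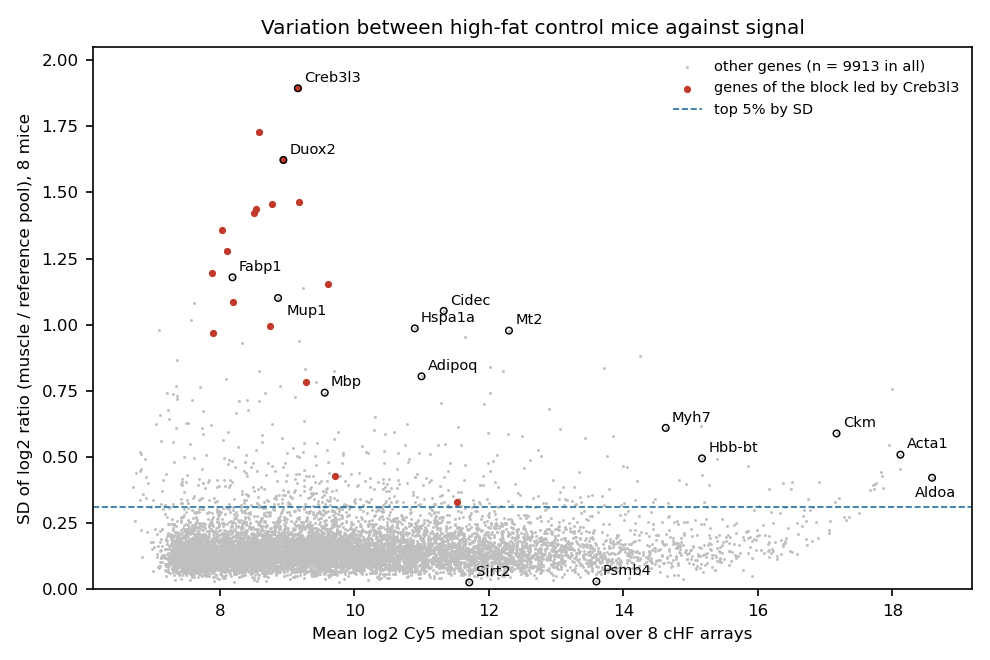
The SD of the log2 ratio over the 8 cHF mice is plotted against the mean log2 Cy5 signal, both on linear axes, 1 point per gene (9913 genes), with the genes that follow Creb3l3 in red, other named genes circled and a dashed line at the edge of the most variable 5% (0.311). Most points form a band around the median SD of 0.139, far above which Creb3l3 (1.89) and Fabp1 (1.18) stand, and Sirt2 (0.0254) lies at its foot.

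A second probe of the gene followed the first more closely among the variable genes. Over the mice, the median correlation between the brightest and the second probe was 0.804 across the 156 most variable genes with another kept probe and 0.33 across 2878 other genes, a description over genes that are not independent of each other. The variation was not spread evenly over the mice. Mouse 1 was the most extreme of the 8 in 199 of the 496 most variable genes, in 105 of them as the highest, whereas the other mice were extreme in 25 to 80 each. That was 40.1% of the variable genes, against 33.3% of all 9913. A single mouse lay apart from the other 7 by Dixon's ratio in 65 of the 487 most variable genes measured on all arrays (13.3%), against 820 of 9785 genes overall (8.38%), and in 530 of those 820 it was mouse 1.

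The dim arrays took part in the variation as well. Mice 1 to 3 all lay above mice 4 to 8 in 46 of the 496 genes (9.27%, against 4.95% of all genes) and all below in 39 (7.86%, against 2.94%). Within mice 4 to 8 alone, 316 of the 496 genes were again in the most variable 5%. What part of the differences between mice came from the array could not be told apart from the animal, because each mouse was measured once.

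Creb3l3 had the highest SD of all genes. It encodes a transcription factor of the endoplasmic reticulum membrane that is best known from liver and intestine, and its probe lies at chr10:80487703-80487762 (mm8). Its log2 ratio was 1.55 in mouse 1, -3.11 in mouse 2, 1.62 in mouse 3, -0.69 in mouse 4, 0.25 in mouse 5, -0.83 in mouse 6, -3.40 in mouse 7 and -1.54 in mouse 8. Mice 1 and 3 were thus at the top and mice 2 and 7 at the bottom. The SD was 1.89.

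Most of the other leading genes repeated this order of mice. A set of 25 probes, its own included, correlated with the Creb3l3 probe at r of at least 0.9, a description of a set chosen on these values. It held 19 genes with symbols on 14 chromosomes, among them 4930535E02Rik (SD 1.73), the NADPH oxidase Duox2 (1.62), Nfya (1.47), a subunit of the CCAAT-binding factor NF-Y, the carrier Slc25a35 (1.46), Pced1b (1.44), Eml6 (1.42), Kif12 (1.36), Syt6 (1.28), the carboxypeptidase Cpb2 (1.19), Trim68 (1.16) and Terc (1.09), the RNA component of telomerase. Their median log2 ratio in mice 1 to 8 was 1.31, -1.57, 0.944, -0.528, 0.275, -0.557, -2.05 and -1.08. The members have no tissue or pathway in common that the lists used here name. Several members had other, dimmer probes that were not kept. Their mean log2 Cy5 signals were 6.229 for Nfya, 6.239 for Kif12, 6.003 and 5.985 for Cpb2, 6.343 for Trim68 and 5.945 for Terc. Which transcripts the probes of the set read was not tested.

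The spread of the set lay in the Cy5 channel, with a median SD of 1.42 in quantile-normalized Cy5 signals alone against 0.388 in Cy3 alone. For the 3 members with another kept probe, that probe had a lower SD. The Ptprz1 member was the dimmer of its 2 probes (SD 1.09), while the brighter one had an SD of 0.395, and r between them was -0.475. Mrps17, a mitochondrial ribosomal protein, was likewise a member through its dimmer probe (SD 0.887), and the brighter one had an SD of 0.0731. Mast4 was a member through its brighter probe (SD 0.429), and the second had an SD of 0.126. In the comparison groups the Creb3l3 probe ranged from -3.45 to 1.17 in cHF+F (SD 1.69) and from -2.63 to 1.38 in cHF+ROSI (SD 1.14). The lowest value was that of replicate 5 and of replicate 7, the highest that of replicate 3 and of replicate 1. Of the 24 other members, 21 correlated with it at r of at least 0.9 in both comparison groups, with median r over the 24 of 0.982 in cHF+F and 0.985 in cHF+ROSI. The 3 that did not were Mast4 (0.756 and 0.816), Polr3gl (0.498 and 0.471) and a probe without a symbol (-0.245 and 0.795). Mid1, an X-linked ubiquitin ligase (SD 1.14), was also highest in mouse 1 (1.83) and mouse 3 (1.49) and lowest in mouse 2 (-1.33), although outside the set.

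**Figure D2:**
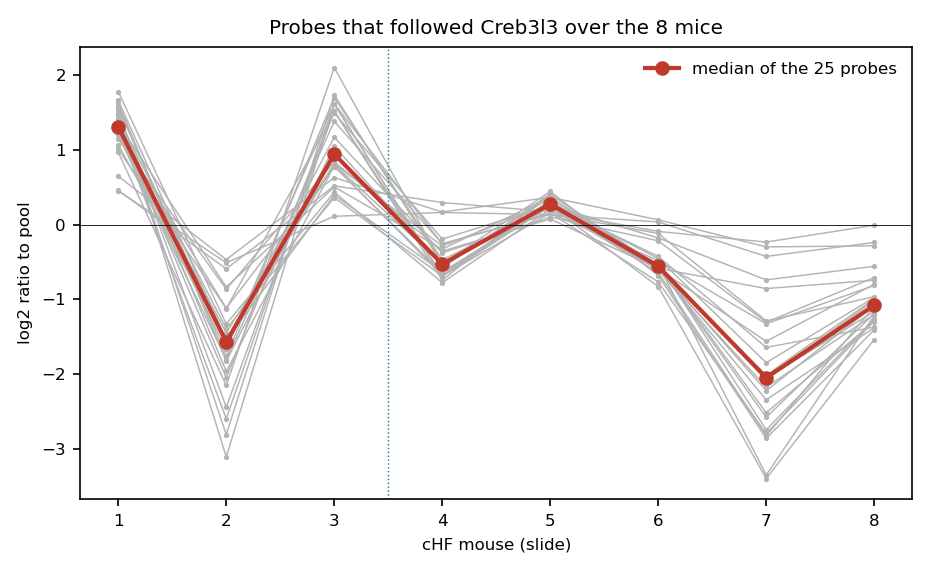
The log2 ratio to the reference pool (vertical axis) of the 25 probes that correlate with Creb3l3 at r of at least 0.9 is drawn for each of the 8 cHF mice, which have no order, with 1 grey line per probe, their median in red and a dotted line between the dim arrays of mice 1 to 3 and the others. Mice 1 and 3 lie high and mice 2 and 7 low, with medians from 1.31 to -2.05.

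Several heat shock genes were highest in mouse 1. These genes encode chaperones and co-chaperones that bind unfolded proteins, and their promoters are switched on by the heat shock factor HSF1 at paired GAA units. Of 19 kept heat shock genes, 6 were in the most variable 5%, with a median SD of the list of 0.221. The promoters of 4 of them, from RefSeq on GRCm38 and on the strand of the gene, are shown because their genes peaked together in mouse 1. Each run holds the 250 bases before the first annotated start listed for the gene. Dnajb1 has 2 listed starts, Dnaja1 3 and Hsph1 2, and the windows of the others are not described. Capitals mark the paired unit GAANNTTC or TTCNNGAA, searched on both strands, the only motif searched.
Hspa1a (chr17:34972157-34972406, minus strand): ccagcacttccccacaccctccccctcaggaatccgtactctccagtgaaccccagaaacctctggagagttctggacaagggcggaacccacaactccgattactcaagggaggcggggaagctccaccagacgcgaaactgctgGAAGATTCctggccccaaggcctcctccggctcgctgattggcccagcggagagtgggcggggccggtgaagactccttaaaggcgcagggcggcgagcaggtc
Dnajb1 (chr8:83607925-83608174, plus strand): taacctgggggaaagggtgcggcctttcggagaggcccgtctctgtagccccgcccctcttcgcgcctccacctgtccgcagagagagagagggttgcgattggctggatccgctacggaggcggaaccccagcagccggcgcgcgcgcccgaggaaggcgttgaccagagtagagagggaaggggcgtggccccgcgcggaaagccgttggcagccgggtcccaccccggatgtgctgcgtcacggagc
Dnaja1 (chr4:40722218-40722467, plus strand): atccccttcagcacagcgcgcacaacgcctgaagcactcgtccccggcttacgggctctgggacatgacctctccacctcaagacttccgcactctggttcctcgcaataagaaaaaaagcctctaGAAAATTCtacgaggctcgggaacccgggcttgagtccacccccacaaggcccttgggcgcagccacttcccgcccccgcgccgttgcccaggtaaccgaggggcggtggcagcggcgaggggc
Hsph1 (chr5:149636337-149636586, minus strand): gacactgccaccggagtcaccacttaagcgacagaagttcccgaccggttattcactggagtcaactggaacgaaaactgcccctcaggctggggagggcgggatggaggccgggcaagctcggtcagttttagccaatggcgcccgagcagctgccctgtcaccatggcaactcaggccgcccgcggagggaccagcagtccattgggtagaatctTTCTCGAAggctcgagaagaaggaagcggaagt
The unit begins 104 bases before the start in Hspa1a, 124 in Dnaja1 and 33 in Hsph1. In Dnajb1 these letters are not in the window, nor are they in that of Hspa4l, another gene of the list, which is not shown. Of all 32851 promoters of the table, 4218 (12.8%) hold the unit, so a match describes the sequence and no binding.

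Hspa1a, the inducible Hsp70, had a log2 ratio of 2.07 in mouse 1 and of -0.96 to 0.09, with a median over all mice of -0.66, in the others, and an SD of 0.986. Its probe (chr17:34577877-34577936, mm8) cannot be told apart from the near-identical Hspa1b. Dnajb1, the Hsp40 partner of Hsp70, reached 2.02 in mouse 1 and -0.74 to -0.11 in the 6 other mice with a value (SD 0.954). In both genes the remaining mice did not reach the value of mouse 1, and a second kept probe correlated with the first at 0.99 over the mice. Dnaja1, another Hsp40, was at 1.08 in mouse 1 and at -0.47 to 0.10 elsewhere, and Hsp90aa1, the inducible Hsp90, at 0.66 in mouse 1 and -0.96 in mouse 8. Hsph1, an Hsp110, was likewise highest in mouse 1 (0.66), followed by mouse 2 (0.43). Hspb7 differed, with its highest value in mouse 4 (0.26) and its lowest in mouse 7 (-0.93). In 4 of the 6 genes, Hspa1a, Dnaja1, Hsp90aa1 and Hsph1, mice 1 to 3 all lay above mice 4 to 8, so their order was also that of the dim and bright arrays. Dnaja1, Hspb7 and Hsph1 lie outside the naming rule and were picked with their values in view. Within mice 4 to 8 the SD of Hspa1a was 0.125, and 3 of the list's genes were then in the most variable 5%.

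Immediate early genes, which are transcribed within minutes of a stimulus, followed a similar order in part. Of 22 kept, 10 were in the most variable 5% (median SD 0.268). Atf3, a stress-induced transcription factor, ranged from -0.93 in mouse 5 through a median of -0.48 to 1.51 in mouse 1. Fos ranged from -0.47 in mouse 5 to 1.87 in mouse 1, and Ier5 from -0.83 in mouse 5 to 1.18 in mouse 1. The AP-1 gene Fos and the zinc finger gene Egr1 did not go together, for Egr1 was at 0.30 in mouse 1 and highest in mouse 5 (0.49). Without mouse 1, 7 of the list's genes were in the most variable 5%. Nfil3, a repressor of the clock's output genes, was also highest in mouse 1 (1.25), where Dbp, an output gene it opposes, was lowest (-1.48). In Nfil3 too, mice 1 to 3 all lay above the others. Of 17 kept clock genes 4 were in the most variable 5%, the others named by the rule being Nr1d1 with -0.60 in mouse 1 and 0.35 in mouse 7. Pfkfb3, a regulator of glycolysis chosen after its values were seen, was at -2.11 in mouse 1 and at -0.42 to 0.52 in the others.

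Most adipocyte genes were in the most variable 5%. In a whole muscle, more fat cells and more RNA of these genes per cell cannot be told apart, and the same holds for every cell type marker below. Of the 14 kept, 11 were in it, with a median SD of 0.514. Cidec, a protein of the fat droplet (probe at chr6:113390476-113390535, mm8), ranged from -1.76 in mouse 1 through a median of -1.16 to 0.83 in mouse 4 (SD 1.05). Adipoq, the hormone adiponectin, ranged from -1.40 in mouse 1 to 0.92 in mouse 4, and Plin1, the perilipin of white fat, from -1.50 to 0.73 in the same mice. Mice 3, 4 and 5 were the 3 highest in all of these genes, and Lep, the hormone leptin, was also highest in mouse 4 (0.88). The defining marker of brown fat, Ucp1, was not well above background on any of the arrays.

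The genes most correlated with Adipoq over the mice were C2 (r = 0.985), Cidec (0.983), Phgdh (0.98) and Plin1 (0.977), a description over the 8 mice that share the arrays. The brightest of the list were Car3 (15.85), which fat and slow fibres both express, and Fabp4 (15.27). Car3 went another way at its brightest probe, from -0.52 in mouse 2 to 0.62 in mouse 6, with mice 1 to 3 all below mice 4 to 8. Its second kept probe (SD 0.456) correlated with that probe at only 0.236 over the mice. Fabp4 ranged from -0.48 in mouse 1 to 0.48 in mouse 4. Cfd, the complement factor D, was highest in mouse 5 (0.47) and lowest in mouse 8 (-1.09), with mouse 3 (-0.26) below mouse 2 (0.25). The median log2 ratio over the list was -0.522, -0.352, 0.164, 0.527, 0.221, -0.495, -0.597 and -0.508 in mice 1 to 8. Cy5 signals alone put 5 of the list in the most variable 5%, and the processed signals 7.

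Of the kept genes of lipid synthesis, 12.5% were in the most variable 5%, against 5.00% of all genes. Scd1, the stearoyl-CoA desaturase, ranged from -0.43 in mouse 8 to 1.27 in mouse 5, with 0.98 in mouse 4, and its r with Adipoq was 0.763 (exact permutation p = 0.0298, adjusted p = 0.0835, n = 8). Scd2 ranged from -0.58 to 0.42 and was highest in mouse 4. Both were the only 2 of 16 kept lipid synthesis genes in the most variable 5%. Among fatty acid oxidation genes, 8 of 29 were in the most variable 5%, led by Lpl (SD 0.467), the lipase that releases fatty acids from lipoproteins, Angptl4 (0.419), its inhibitor, and Ucp3 (0.404), a mitochondrial carrier. Lpl was at 0.49 to 0.58 in mice 3, 4 and 5 and at -0.66 to -0.08 in the others, and mice 3, 4 and 5 were also the highest for Cidec, Adipoq and Plin1. Ucp3 was highest in mouse 2 (0.54) and lowest in mouse 4 (-0.61).

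Liver genes formed the list with the highest median SD, 0.741, with 8 of 9 kept members in the most variable 5%, while 6 of its 15 genes were not kept. Fabp1, the liver fatty acid-binding protein and no list member, had a log2 ratio of -3.87 in mouse 6 and of -1.75 to -0.03 in the others. Mup1, a major urinary protein, was at -4.15 in mouse 6 and at -2.40 to -0.75 elsewhere, and Ahsg, fetuin-A, at -3.19 against -1.63 to -0.27. Serpina1d, an alpha-1-antitrypsin outside the list, was at -3.41 in mouse 6. Mouse 6 was the lowest in each, and every ratio of these 4 genes was below 0, lower in the mouse than in the pooled reference. The list members Fgb (-2.3), Apoa2 (-1.58) and Rbp4 (-1.19) were also lowest in mouse 6. Fgb reached 0.2022 in mouse 2, and Rbp4 0.2536 in mouse 4. Cyp2e1, another member, differed, with -1.56 in mouse 7 and -1.35 in mouse 8 below -1.097 in mouse 6. Trf, a member outside the most variable 5%, correlated with Adipoq at r = 0.973. Alb, the serum albumin, was at -2.63 in mouse 6 and at -0.37 in mouse 5. The defining markers Ttr and Fga were not well above background on any array, and the median log2 Cy5 signal of the list was 7.62. Hp (12.02 at its brightest probe), made in fat as well as liver, was highest in mouse 4 (1.49) and so followed the adipocyte genes. Members of the Mup and Serpina1 families share sequence, so their probes may read several copies. In Cy5 signals alone, 1 list gene remained in the most variable 5%, and the SD of Alb in the comparison groups was 0.901 (cHF+F) and 1.56 (cHF+ROSI).

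Markers of peripheral nerve were highest in mice 3 and 4. Of 7 kept genes of the nerve and Schwann cell list, 4 were in the most variable 5%. Pmp22, a protein of peripheral myelin, was at 1.05 in mouse 4 and 0.85 in mouse 3, with -0.98 in mouse 1 and a median of -0.35. S100b, a Schwann cell marker, was at 0.96 and 0.60 in the same mice and at -0.84 in mouse 1. Mbp, the myelin basic protein, reached 1.16 in mouse 4 and -1.22 in mouse 1, but its second probe had an SD of 0.117 and an r of 0.107 with the first. The genes most correlated with Pmp22 included Kcna1 (r = 0.992), the axonal potassium channel, Itgb4 (0.981) and Prx (0.955), both of Schwann cells. Nefl and Nefm, neurofilaments made in the distant cell bodies of the neurons, were not well above background on any array.

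Red blood cell RNA stood out in mouse 7. Hba-a1, an alpha globin, was at 1.09 in mouse 7 and at -0.41 to 0.26 in the others, and Alas2, the erythroid enzyme of haem synthesis, at 0.82 against -0.40 to 0.00. Hbb-bt, a beta globin, was at 0.96 against -0.50 to 0.20. These 3 were the members of 5 kept in the most variable 5%, and none of the list was in it without mouse 7. Globin genes share sequence, so single copies are not told apart.

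Markers of other cells varied less. Of 13 kept macrophage genes only Lyz2 (SD 0.320) was in the most variable 5%, and of 12 endothelial genes none was, the highest SD being that of Kdr (0.281). In smooth muscle and pericytes Acta2 (0.40) and Rgs5 (0.321) were in it, of 9 genes. The second kept probe of Acta2 (SD 0.3055) ran opposite to the first over the mice, at r = -0.90, and for Rgs5 this r was 0.586. In 1 of these 2 genes mice 1 to 3 all lay below mice 4 to 8. S100a9, a neutrophil protein, had an SD of 0.823, with 0.46 in mouse 1, -1.55 in mouse 7 and mice 1 to 3 above all others, whereas Camp, Elane, Ltf and Ngp were not well above background on any array. Ighm, the IgM heavy chain, ranged from -0.79 in mouse 4 to 0.80 in mouse 1. Of 8 kept tendon genes Comp alone was in the most variable 5%, from -0.99 in mouse 8 to 0.67 in mouse 4, and Fmod, which leads 6 of 23 matrix genes, ranged from -1.07 in mouse 1 to 0.42 in mouse 4. Krt5 of skin (SD 0.520) and Prm2 of testis (0.510) had signals near background at a mean log2 of 6.81 and 6.83. Myog, a factor of muscle differentiation, ranged from -0.59 to 0.68 (SD 0.461).

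**Figure D3:**
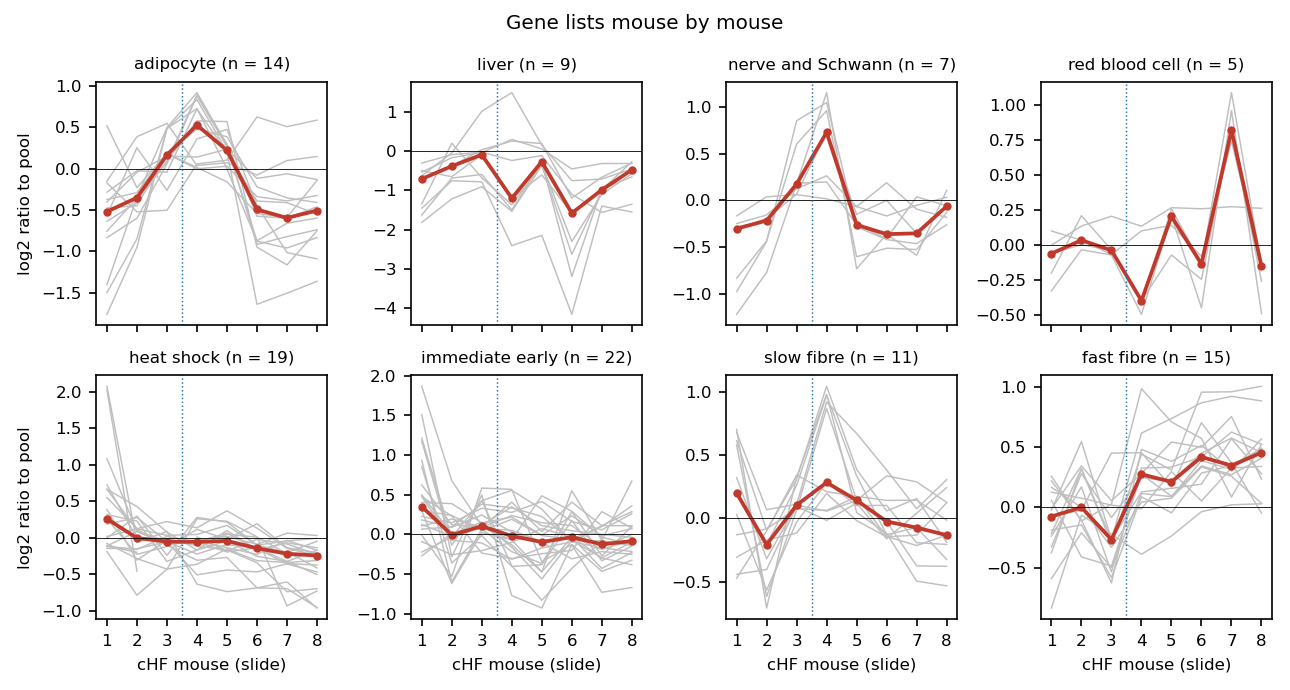
In 8 panels, 1 for each of 8 gene lists with its number of kept genes, the log2 ratio to the reference pool is drawn for each cHF mouse, which have no order, with 1 grey line per gene, the list's median in red and a dotted line between the dim arrays of mice 1 to 3 and the others, on vertical scales that differ. The median of adipocyte genes is highest in mouse 4 (0.527) and that of red blood cell genes in mouse 7 (0.821), and single heat shock and immediate early genes lie far above their lists in mouse 1.

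The 3 slow-fibre genes of highest SD were all highest in mouse 4, but not all lowest in the same mouse. Of 11 kept slow-fibre genes, 5 were in the most variable 5%. Myh7, at chr14:53924903-53924962 (mm8), ranged from -0.71 in mouse 2 through a median of -0.04 to 0.98 in mouse 4 (SD 0.610), and its second kept probe correlated with it at 0.961. Tnnt1, the slow troponin T, ranged from -0.62 to 0.87 in the same mice, and Tnni1, the slow troponin I, from -0.32 in mouse 8 to 0.97 in mouse 4. Mouse 4 was the highest in these 3 genes, and mouse 1 the second in Myh7 and Tnnt1. Closest to Myh7 over the mice were Tnnt1 (r = 0.982) and Myh6 (0.97), whose sequence is very like that of Myh7. Without mouse 4, 2 of the list's genes were in the most variable 5%. The SD of Myh7 was 0.828 in cHF+F and 1.16 in cHF+ROSI.

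Fast-fibre and muscle identity genes were also often in the most variable 5%, 8 of 15 and 6 of 15, but their lowest values lay on the dim arrays. Myh4 was at -0.27 and -0.02 in mice 3 and 1 and at 0.54 to 0.92 in the others. Tpm1 ranged from -0.38 in mouse 1 to 1.00 in mouse 8, Atp2a1 from -0.59 in mouse 1 to 0.49 in mouse 8, Ckm from -0.79 in mouse 1 to 0.70 in mouse 8, and Neb, the giant protein nebulin, from -1.24 in mouse 1 to 0.65 in mouse 6. Without mouse 3 the fast-fibre count was 4. It was 3 within mice 4 to 8, 2 after median centring, 1 in Cy5 signals alone and 1 after division by the trend of SD on signal, and within mice 4 to 8 the SD of Myh4 was 0.126 and that of Acta1 0.0968. Whether the arrays or the muscles set these differences was not tested.

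Genes of the respiratory chain and of the ribosome had median SDs near the 0.139 of all genes. At the share of 5.00% over all genes, lists of their size hold few variable genes, so a count of 0 is near that share. None of 34 respiratory chain genes was in the most variable 5%, the highest SDs being those of Cox7a1 (0.273), Sdhb (0.246) and Atp5b (0.243), and the median was 0.154. None of 32 ribosomal protein genes was in it either, with Rps6 (0.229) highest and a median SD of 0.131, close to 0.139 of all genes. In glycolysis and glycogen, 3 of 20 were in it, Ppp1r3c (0.490), a glycogen-targeting phosphatase subunit, Aldoa (0.421) and Gapdh (0.328). Ppp1r3c was highest in mouse 1 (0.85) and lowest in mouse 7 (-0.61), with mice 1 to 3 above the rest, and the other 2 were lowest in mouse 3. Among calcium handling genes 4 of 19 were in it, and Sln, the calcium pump inhibitor sarcolipin, ranged from -0.98 in mouse 6 to 0.52 in mouse 5.

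**Figure D4:**
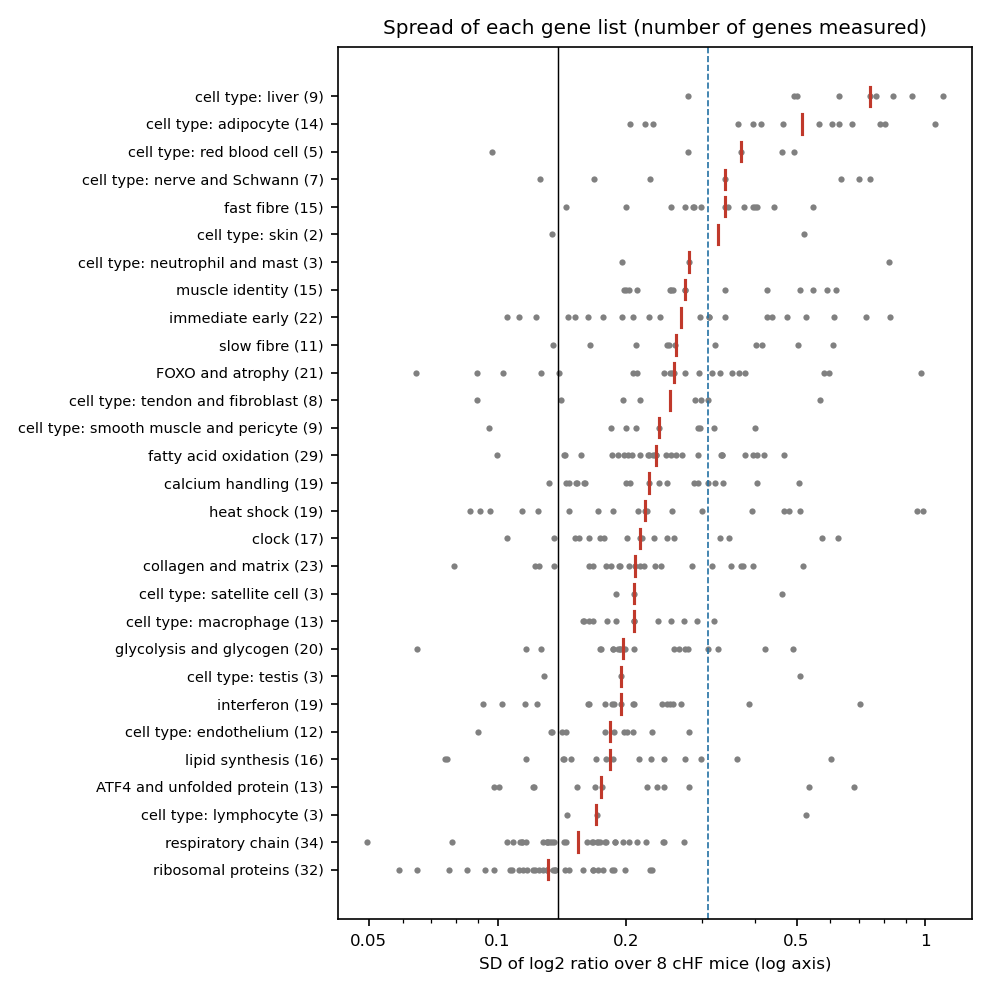
For each gene list, with its number of kept genes, the SD of the log2 ratio over the 8 cHF mice is drawn as 1 grey point per gene on a log axis, with the list's median as a red bar, the median of all genes (0.139) as a black line and the edge of the most variable 5% (0.311) as a dashed line. Liver (median 0.741) and adipocyte (0.514) genes lie highest, and no respiratory chain or ribosomal protein gene passes the edge.

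Metallothioneins, small metal-binding proteins induced by zinc and glucocorticoids, had a wide range. Mt2 (probe at chr8:97062600-97062659, mm8) ranged from -1.99 in mouse 7 through a median of -0.92 to 0.70 in mouse 1 (SD 0.977), and Mt1, its neighbour on chromosome 8, from -0.92 to 0.88 in the same mice. In both genes mice 1 to 3 lay above mice 4 to 8, so the order was also that of the dim and bright arrays. Within mice 4 to 8 the SD of Mt2 was 0.545 and that of Mt1 0.261. The list of FOXO targets and atrophy genes to which they belong had 8 of 21 kept genes in the most variable 5%. Ddit4, an inhibitor of mTORC1, ranged from -1.17 in mouse 7 to 0.48 in mouse 3. Fbxo32, the ubiquitin ligase atrogin-1, was highest in mouse 8 (0.70) and lowest in mouse 1 (-0.63).

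Other lists had few variable genes. Of 13 kept genes of the ATF4 and unfolded protein response, Chac1, which degrades glutathione, and Phgdh, of serine synthesis, were in the most variable 5%. Chac1 was at 0.75 to 0.82 in mice 6 to 8 and at -0.83 to 0.05 in the others, while Phgdh was highest in mouse 4 (0.69). Of 19 interferon genes, Ifi27l2a (SD 0.704) and H2-D1 (0.387) were in it. Ifi27l2a was at -1.25 to -1.03 in mice 1, 6, 7 and 8 and at -0.04 to 0.47 in mice 2 to 5. Mss51, a skeletal muscle gene of oxidative metabolism picked with its values in view, was at -2.05 in mouse 5 and at -0.31 to 0.77 in the others. Xlr4b, an X-linked gene (SD 0.978), was at -1.56 to -1.33 in mice 6 to 8 and at 1.05 in mouse 4.

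The steadiest of the genes above the median signal was Sirt2, a deacetylase, with an SD of 0.0254 and ratios from -0.07 to 0.01. It was followed by Gspt1, a translation release factor (0.0256), Psmb4, a proteasome subunit (0.0289), Gpatch11 (0.0344), BC004004 (0.0359), Hscb (0.0359), Idh3g of the citric acid cycle (0.0365), 5730409E04Rik (0.0366), Map2k7 (0.0378) and EG620169 (0.0380). All 10 lay below 0.0517, the SD under which 1% of all genes lay. These SDs are of the brightest probe only, and other kept probes of the same genes varied more. Their SDs were 0.226 for Gspt1, 0.183 for BC004004, 0.0842 and 0.120 for Sirt2 and 0.0695 for Gpatch11.

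The reference channel allowed the mouse RNA to be set against an RNA that was the same on all arrays. Every mouse was in Cy5 and the pool always in Cy3, so a larger spread from the mice and one from the dye cannot be told apart. Over 14591 probes the median SD of quantile-normalized signals was 0.42 in Cy5 and 0.338 in Cy3, and Cy5 varied more in 78.8% of probes. A limma test on paired deviations called 307 probes (2.10%) with more variation in Cy5 and 3 (0.0206%) with more in Cy3, at a Benjamini-Hochberg adjusted p under 0.05. Unadjusted, 3647 and 134 probes passed. The 3 probes were those of Cdc14a, Zfp521 and a transcript without a symbol.

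Ifi27l2a had the lowest p. Its SD was 0.859 in Cy5 and 0.273 in Cy3, a mean difference of deviations of 0.661 ± 0.0497 (SE, n = 8, limma adjusted p = 0.000409). Pnisr followed with 0.502 ± 0.0472 (adjusted p = 0.0022), Tmem45b, also on the adipocyte list, with 0.440 ± 0.0512 (0.0127), Clcn3 with 0.350 ± 0.0439 (0.0163) and Zc3h6 with 0.395 ± 0.0509 (0.0163). Counted by gene, 164 of 9913 (1.65%) were called. Of the lists, 3 of 14 adipocyte, 3 of 21 FOXO and atrophy, 2 of 9 liver and 2 of 19 interferon genes were among them, and 1 each of 11 slow-fibre, 34 respiratory chain, 17 clock, 13 ATF4 and unfolded protein and 3 neutrophil and mast cell genes. The count rested on single arrays and on the scaling. It was 3 without mouse 1 (Ifi27l2a, Pnisr and Tmem45b), 12 without mouse 2, 163, 152 and 165 without mice 6, 7 and 8, 0 with squared deviations and 530 within mice 4 to 8, where the median SD was 0.132 in Cy5 and 0.0694 in Cy3. For Creb3l3 the SDs were 2.42 and 0.831 and the adjusted p was 0.0746.

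**Figure D5:**
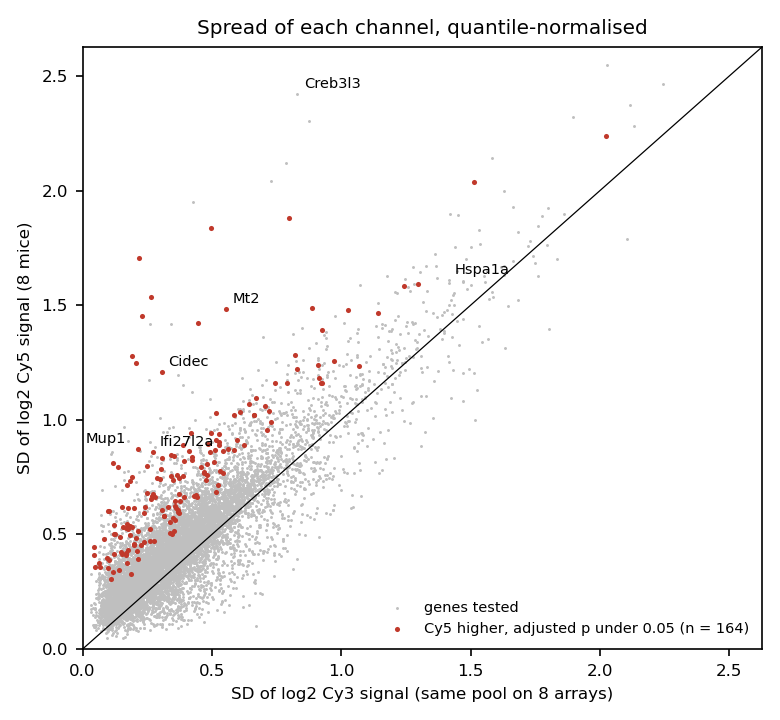
The SD over the 8 cHF arrays of the quantile-normalized log2 signal is plotted for Cy5 (vertical) against Cy3 (horizontal), both on linear axes, 1 point per gene, with the genes called for more variation in Cy5 in red (164 of 9913) and the line of equal SD drawn. Most points lie above the line, with medians over probes of 0.42 and 0.338.

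Most of the variable genes of the control muscles were variable in the treated muscles too. Of the 496, 322 (64.9%) were among the 496 most variable of cHF+F and 267 (53.8%) of cHF+ROSI, 206 (41.5%) in both and 113 (22.8%) in neither. Their median SD was 0.352 in cHF+F and 0.354 in cHF+ROSI, where the medians of all genes were 0.134 and 0.155. Adipoq had SDs of 0.805, 0.930 and 0.644 in cHF, cHF+F and cHF+ROSI. Pmp22 had 0.699, 0.323 and 0.582, and Pdk4, a fasting-induced kinase that limits glucose oxidation, had 0.335, 0.879 and 0.766.

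Whether the control mice varied more or less than treated mice was tested with limma on the absolute deviations from the group mean, over 15934 probes. In cHF+F 0 probes (0%) were called, with 294 larger and 309 smaller at an unadjusted p under 0.05, and the SD was larger than in cHF for 47.4% of probes. Iba57 had the lowest p, with an SD of 0.0447 in cHF and 0.252 in cHF+F, a difference of 0.196 ± 0.0367 (SE, limma adjusted p = 0.114). Amotl1 differed by 0.184 ± 0.0344 (adjusted p = 0.114) and E130114P18Rik by -0.236 ± 0.058. In cHF+ROSI 0 probes (0%) were called as well, with 808 larger and 327 smaller before adjustment, and the SD was larger than in cHF for 61.4% of probes. These unadjusted counts turned with the scaling. Cy5 signals alone gave 139 larger and 2333 smaller in cHF+ROSI and 23 and 636 in cHF+F, and median centring gave 1381 and 31 in cHF+ROSI and 59 and 27 in cHF+F. Cdnf had the lowest p there, at -0.278 ± 0.0513 (limma adjusted p = 0.189), before Tmem109 at 0.189 and Cdh13 at 0.198. The p-values measure the spread between mice, each measured once, and the number of arrays limits what such a test of spread can find.

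A family of 14 pairs of genes, only some of which share a function, was compared over the cHF mice. Of these pairs, 4 were correlated by both r and rho in exact permutation tests after Benjamini-Hochberg adjustment over the 14. Mt1 and Mt2 had r = 0.967 (exact permutation p = 7.44e-05, adjusted p = 0.00104, n = 8) and rho = 0.976. The globin gene of the pair Hbb-b1, named Hbb-bt now, and Alas2 had r = 0.944 (exact permutation p = 0.00169, adjusted p = 0.0118) and rho = 0.857. Myh7 and Tnni1 had r = 0.870 (exact permutation p = 0.0031, adjusted p = 0.0145) and rho = 0.857. Fbxo32 and Trim63, both muscle ubiquitin ligases, had r = 0.842 (exact permutation p = 0.0131, adjusted p = 0.0459) and rho = 0.857. All 3 rho values of 0.857 had a permutation p of 0.0107 and an adjusted p of 0.0375.

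Without the 2 mice farthest from the median of the first gene, r was 0.976, 0.883, 0.837 and 0.644 for these 4 pairs, and within mice 4 to 8 it was 0.96, 0.957, 0.958 and 0.791. Mice 1 to 3 are too few for a value. Without mouse 7, r of Hbb-bt and Alas2 was 0.772 (exact permutation test, adjusted p = 0.128), and 1 of the 14 pairs, Mt1 with Mt2, was called. For Fbxo32 with Trim63 the adjusted p was 0.0458 to 0.194 with 1 mouse left out. Without mouse 4 and without mouse 8, 2 pairs were called each time. Myh4, of the fastest fibres, and Myh7 had r = -0.521 (exact permutation p = 0.184, adjusted p = 0.321), and -0.952 within mice 4 to 8. Arntl, the clock activator, and Dbp had r = -0.749 over 7 mice (exact permutation p = 0.054, adjusted p = 0.125). Adipoq and Cfd, the adipocyte complement factor D, had r = 0.694, Pdk4 and Angptl4 0.459, Col1a1 and Col3a1 0.407, Prm1 and Prm2 0.382, Mup1 and Prm1 0.276, Pdk4 and Ucp3 0.216 and Fos and Egr1 -0.0595, and none of these passed.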

How the data were processed

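The 8 cHF arrays, and for the comparisons of variation all 24, were Agilent whole mouse genome arrays with 45018 spots, which hold 43379 spots of 41174 probes beside the controls. Per the file headers, the deposited intensity values are spot and local background brightness quantified by Feature Extraction version 10.5.1.1, and the files also hold processed intensity values and quality flags (other) set by that program. The authors also deposited a table of log2 values of Cy5 normalized against Cy3 without dim spots. Only its cHF columns were used, as an alternative, and 16 further columns were not used. Positions were copied from the scanner files (mm8, NCBI build 36).

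Levels are mean log2 median Cy5 signals of the brightest probe of a gene. For ratios, median signals were corrected by normexp with an offset of 50 and normalized within arrays by loess with a span of 0.3, flagged spots were left out, and spots of a probe were averaged. Probes needed 6 unflagged arrays and a mean signal of at least 2 times background in both channels, over the 8 arrays (14591 probes) or over all 24 (15934). Of the former, 11595 were named through their accession, 2152 by the file's own name and 844 had no symbol. Saturated spots were kept. Samples were grouped by the deposited labels. Tests were run with limma version 3.58.1 and data.table version 1.17.8 in R version 4.3.3 on absolute deviations from the group mean, multiplied by the square root of n/(n - 1) and two-sided, after being tested on simulated data. Correlations were tested two-sided by exact permutation of pairings, and 2 further pairs could not be tested because a gene was not kept.

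The mice, the gene lists, the pairs and the tests were chosen with earlier results of these data known, so the list counts are descriptions. Named genes are the 25 brightest, the 25 of highest SD, the 10 of lowest SD above the median signal, the 3 of highest SD and the 2 brightest of each list, the genes of the pairs, and per comparison of variation up to 5 called probes or the 3 of lowest p. Other genes were picked with their values in view, or stand in for a list or a correlation.

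The slide number equals the replicate number, and each slide held 1 array of each group. Same-numbered arrays of cHF and cHF+F deviated together at r of -0.109 to 0.643 (6 of 8 over 0.1), and of cHF and cHF+ROSI at 0.0355 to 0.602 (7 of 8). Per the file headers the slide is shared, so a fit with the slide as a block was run beside the reported one. The alternatives tried were other background corrections and scalings, Cy5 alone, other filters, other measures of spread, slides 4 to 8 alone, and each mouse left out.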

Additional observations from a re-analysis of the deposited data

Results flagged for a closer look

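Of 173 named genes, 10 (5.78%) had 1 of the 8 cHF mice apart from the other 7 by Dixon's ratio, the gap to the nearest mouse divided by the whole range, above its 95% critical value. Chance alone is set to flag about 5% of genes by this rule, and 820 of all 9785 genes measured on 8 arrays (8.38%) met it, a larger share than among the named genes. No cause was tested for any of them. In mouse 1 these were Hspa1a with a ratio of 0.656 (log2 ratio 2.07, next 0.0855), Dnajb1 with 0.774 (2.02, next -0.114) and Cdh13 with 0.618 (-0.132, next -0.0112). In mouse 2 it was Myl3 with 0.575 (-0.319, next 0.0578), and in mouse 3 Eno3 with 0.573 (-0.609, next -0.0869). Mouse 6 was the lowest for Fabp1 with 0.553 (-3.87, next -1.75), Serpina1d with 0.529 (-3.41, next -1.79) and Ahsg with 0.534 (-3.19, next -1.63). Mouse 7 was the highest for Hba-a1 with 0.555 (1.09, next 0.258) and Alas2 with 0.671 (0.821, next 0.00118).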

How the results depend on the processing

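Of the 100 brightest genes, 71 to 99 were shared under the alternatives. Of the 496 most variable, 353 to 477 were shared under most alternatives that also gave 496 genes, and 389 to 466 with 1 mouse left out. The exceptions were 173 with processed signals, 57 with Cy5 alone, 316 within mice 4 to 8 and 320 with the median absolute deviation. Sets of other sizes shared 338 of 339 genes (signal at least 4 times background), 496 of 1052 (no signal filter) and 376 of 608 (the authors' values). Of the 25 most variable named, 20 stayed in the most variable 5% wherever they were kept. The exceptions were Mup1, 2810459M11Rik and Xlr4b (Cy5 alone), Hspa1a (mice 4 to 8, median absolute deviation) and Dnajb1 (without mouse 1).

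The 307 probes with more variation in Cy5 became 1661 with median centring, 21 with between-array quantile scaling of the average, 0 with squared deviations (1449 larger and 10 smaller unadjusted), 530 in mice 4 to 8 and 68 with signal at least 4 times background, and 3 to 315 with 1 mouse left out. Ifi27l2a turned to -0.0937 with median centring (limma adjusted p = 0.782). Against cHF+F, leaving out 1 mouse gave 0 to 4 calls, all 4 (Cog7, E130114P18Rik, Slc49a4 and Wdr46, lower in cHF+F) without cHF+F replicate 4. Against cHF+ROSI there was 1 call with Cy5 alone (Ndufv2, lower), 1 without the signal filter (Ankef1, higher) and 2 in mice 4 to 8 (Gadd45a, higher, and Pop1, lower). With the slide as a replicate block there were 0 calls in both, with smallest limma adjusted p of 0.772 and 0.173, and with the block fitted on the ratios first 0.845 and 0.744. The block was run in these comparisons only. With Cy5 alone the differences of Amotl1, Tmem109 and Cdh13 turned to -0.0572, -0.580 and -0.293.

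Correlated pairs numbered 1 to 4 with 1 mouse left out. Within mice 4 to 8 there were 0, but 5 mice allow few pairings. After adjustment over the 14 pairs a call was hardly within reach, so that count decides nothing. With Cy5 alone r was -0.349 for Myh7 with Tnni1, 0.343 for Fos with Egr1 and -0.462 for Col1a1 with Col3a1. Fos with Egr1 had 0.00235 with processed signals and -0.583 to 0.278 with 1 mouse left out, and Prm1 with Prm2 had -0.406 in mice 4 to 8 and -0.257 to 0.599 with 1 left out. The cause of these shifts was not tested. Signal over background was lowest on the array of mouse 3 (30.4% of spots), which limits dim genes most.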
